A study of Mus musculus with 12 samples.

Results

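Small nucleolar RNA (snoRNA) and small Cajal body RNA (scaRNA) genes were followed in mouse hippocampal slices after chemical long-term potentiation (LTP), together with the host genes in whose introns and exons most of them lie. The genes carry the type snoRNA or scaRNA in GENCODE M21, lie outside the Meg3 to Mirg interval of chromosome 12, and were chosen by their counts, with at least 10 counts in at least 3 of the 12 libraries. Of 41091 gene identifiers in the count tables, 1525 were snoRNA or scaRNA genes, and 1502 of these lay outside the interval. The count threshold kept 214 members and left 1288 genes below it, of which 885 had no count in any library. At the edge of the threshold, 12 members just inside (among them Snord11, Snord110 and Snora47) had a third-highest count of 10, and 13 genes just outside (among them Snord42b) had 9.

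Mini-slices of hippocampus, with the dentate gyrus trimmed away, came from C57BL/6 wild-type animals between 2 and 3 months old, males by the study's methods. LTP was induced with forskolin (50 uM, 5 min), which raises cyclic AMP, followed by forskolin combined with 30 mM KCl and 10 mM Ca2+, so that exposure lasted 10 min altogether. Control slices had the vehicle alone over an equal span (10 min, 0.2% DMSO). RNA was taken at 1 hr or at 3 hr after treatment, and each of the 4 groups of slices had 3 libraries. An LTP and a control library with the same number came from the same animal. The 3 hr and the 1 hr libraries were taken to come from different animals and stand in separate count tables, so time, animal and table cannot be told apart in any comparison of 3 hr with 1 hr. In these bulk samples, fewer cells of a type and less RNA per cell cannot be told apart either.

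SnoRNAs are short, stable RNAs that guide chemical modification of other RNAs in the nucleus. Box C/D members carry a C box near the 5′ end and a D box near the 3′ end, bind fibrillarin, and direct methylation of the ribose. Box H/ACA members fold into hairpins, end in the letters ACA a few bases before the 3′ end, bind dyskerin, and direct conversion of uridine to pseudouridine. Most guide ribosomal RNA, scaRNAs guide spliceosomal RNA in the Cajal body, and a few, such as U3, U8 and U17, act in cleavage of the ribosomal RNA precursor. In mammals most lie in introns and are released from the spliced intron by debranching and trimming, so a member and its host start from the same transcript but are turned over separately. Neurons also express a large imprinted array of box C/D genes within the long non-coding host Snhg14, the region lost in Prader-Willi syndrome.

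The annotated sequences of the members on which the comparisons turn are given first, on the gene's own strand, as in the GENCODE M21 transcripts on GRCm38. Capitals mark the boxes found by letters: TGATG of the C box and CTGA of the D box in box C/D RNAs, and ACA before the 3′ end in H/ACA RNAs. A match describes the letters and is no proof of function. The first set holds box C/D and Cajal body members. Gm22442 lies at chr11:69350518-69350661 in an intron of Chd3, Scarna9 at chr9:15326264-15326333 in an intron of Cep295, and Gm25395 at chr1:87776938-87777209 in an intron of Atg16l1. Gm22486 at chr6:71882557-71882693 lies across an exon boundary of Ptcd3, and all 4 are shown because they rose from 1 hr to 3 hr while their hosts did not.
Gm22442: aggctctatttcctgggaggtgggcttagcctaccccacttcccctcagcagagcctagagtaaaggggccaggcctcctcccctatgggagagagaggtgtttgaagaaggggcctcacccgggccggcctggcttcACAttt
Scarna9: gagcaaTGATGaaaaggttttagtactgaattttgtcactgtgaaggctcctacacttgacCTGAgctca
Gm25395: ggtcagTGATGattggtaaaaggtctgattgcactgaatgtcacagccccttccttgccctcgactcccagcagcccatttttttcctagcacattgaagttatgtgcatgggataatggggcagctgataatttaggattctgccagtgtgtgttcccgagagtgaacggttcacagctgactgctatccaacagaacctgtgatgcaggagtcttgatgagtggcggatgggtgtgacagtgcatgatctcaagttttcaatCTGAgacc
Gm22486: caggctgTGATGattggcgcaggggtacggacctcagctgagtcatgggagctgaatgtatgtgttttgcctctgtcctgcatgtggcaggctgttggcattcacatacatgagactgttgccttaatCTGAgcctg

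The second set holds the members that were higher in LTP slices. Snora31 lies at chr14:75847905-75848034 in an intron of Tpt1, Gm23722 at chr1:39573746-39573875 in an intron of Rnf149, Gm23200 at chr15:53613067-53613198 in an intron of Samd12 and Gm25711 at chr15:20908872-20908999 in an intron of Cdh12. Gm25759, at chr7:124146281-124146409 in an intron of Hs3st4, was lower at 3 hr and is shown beside them because of its likeness in sequence. Gm23200 has no capitals because neither set of boxes was found. Aligned end to end, Gm23200 matched Gm25711 at 69.9% of positions and Gm25759 at 69.6%, and Gm25711 matched Gm25759 at 65.9%, whereas the other pairs among these 5 members matched at 46.4% to 58.0%. These members were chosen for alignment after their values were seen.
Snora31: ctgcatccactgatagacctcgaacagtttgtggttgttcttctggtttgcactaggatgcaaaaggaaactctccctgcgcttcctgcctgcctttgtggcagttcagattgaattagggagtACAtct
Gm23722: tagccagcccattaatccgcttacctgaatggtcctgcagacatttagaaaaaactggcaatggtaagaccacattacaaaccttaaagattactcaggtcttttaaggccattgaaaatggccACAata
Gm23200: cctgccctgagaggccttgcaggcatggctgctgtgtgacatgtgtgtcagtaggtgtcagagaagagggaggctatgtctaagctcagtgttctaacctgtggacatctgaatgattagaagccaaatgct
Gm25711: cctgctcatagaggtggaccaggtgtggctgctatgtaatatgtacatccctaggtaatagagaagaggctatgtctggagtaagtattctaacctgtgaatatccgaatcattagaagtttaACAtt
Gm25759: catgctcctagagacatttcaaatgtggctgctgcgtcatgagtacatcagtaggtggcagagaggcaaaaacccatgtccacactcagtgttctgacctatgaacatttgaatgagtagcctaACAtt

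The third set comes from the Snhg14 array on chromosome 7, all on the minus strand. Gm22373 (chr7:59923034-59923122) and Gm24966 (chr7:59344073-59344151) were higher in LTP slices at 3 hr, and Gm24653 (chr7:59358890-59358968) lies near Gm24966 in the array. Gm24653 and Gm24966 matched at 82.3% of aligned positions, while Gm22373 matched them at 58.9% and 54.2% and matched Snord116l12, a named copy of the Snord116 family, at 71.3%. Gm24966 has no capitals because TGATG was not found near its 5′ end.
Gm22373: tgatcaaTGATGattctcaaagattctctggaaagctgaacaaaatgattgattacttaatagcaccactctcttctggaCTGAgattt
Gm24966: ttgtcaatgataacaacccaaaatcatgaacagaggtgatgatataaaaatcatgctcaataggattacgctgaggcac
Gm24653: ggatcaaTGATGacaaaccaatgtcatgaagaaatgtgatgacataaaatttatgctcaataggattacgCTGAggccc

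The last set shows 3 long or intron-borne members with large differences between times: Snora73b, a U17 RNA, at chr4:132352322-132352526, and the H/ACA members Gm22154 at chr4:123293152-123293282 in an intron of Pabpc4 and Gm25394 at chr13:49684301-49684433 in an intron of Iars.
Snora73b: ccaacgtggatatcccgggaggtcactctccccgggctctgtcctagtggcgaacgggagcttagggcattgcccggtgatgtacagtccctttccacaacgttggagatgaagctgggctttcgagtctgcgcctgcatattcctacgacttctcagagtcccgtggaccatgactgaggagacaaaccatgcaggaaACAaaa
Gm22154: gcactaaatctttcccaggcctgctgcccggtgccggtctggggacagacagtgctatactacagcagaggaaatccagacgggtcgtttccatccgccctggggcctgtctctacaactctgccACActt
Gm25394: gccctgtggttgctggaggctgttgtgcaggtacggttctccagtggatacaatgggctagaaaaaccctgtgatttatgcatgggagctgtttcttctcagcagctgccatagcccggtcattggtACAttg

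By gene type and symbol, 18 members were Cajal body RNAs, 32 box C/D (Snord) and 21 box H/ACA (Snora), and 143 carried a symbol that names no class. The letters put 25 of the 32 Snord genes in box C/D and 21 of the 21 Snora genes in H/ACA, with no Snord or Snora gene in the other class, and were used for the unnamed genes, of which 57 came out as box C/D, 55 as H/ACA and 31 as neither. In what follows the sets are 18 Cajal body members, 76 box H/ACA members, 53 box C/D members outside Snhg14, 48 members within Snhg14 and 19 with neither set of boxes. Members were 65 to 414 bases long with a median of 123.5, and 13 reached 200 bases. A host was found for 199 members: 169 lay wholly in an intron, 24 in an exon and 6 partly in an exon of 115 host genes, most of them protein-coding (143 members), with 51 members in processed non-coding transcripts. Near-identical copies were found for 45 members, 31 of them in Snhg14, and 32 members overlapped an exon of their host or of another gene, so that their counts depend on how the reads were assigned, which is not given in the sources used here.

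Library totals ran from 37118382 to 50815001 counts, and the members took between 0.0431% and 0.0726% of them against between 1.65% and 1.83% for the hosts. A floor of 3 counts per library stood at 0.0590 to 0.0808 CPM, the count scaled to a common library total. Levels were uneven: 5 members held 62% of the summed member CPM and 10 held 74%, while the median member had 16.7 counts per library. In all 4 groups 160 members had a library with at least 10 counts, while 16 members had such a library at 3 hr alone and 0 at 1 hr alone. A member that passed through the libraries where it was high had to differ, so the counts over members that follow describe the 214 and carry no weight beyond that. Libraries were made from total RNA without ribosomal RNA and not from a small RNA fraction, and whether a count came from the mature small RNA or from the unspliced host transcript was not tested. Called means an adjusted p under 0.1 (edgeR's quasi-likelihood test, Benjamini-Hochberg over all genes) with a fold change over 1.2. 1 hr control 2 entered no fit, because the study had treated it as an outlier. Arc, Fos and Npas4, genes of the immediate response to activity, were higher in LTP slices at both times, by 1.99, 1.97 and 2.60 on the log2 scale at 1 hr and by 1.30, 1.48 and 1.43 at 3 hr.

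Per kilobase of length, the highest members were Cajal body RNAs. Gm22442 in Chd3, a chromatin remodeller, averaged 394 CPM per kilobase and Gm22009 in Kpna4, a nuclear import receptor, 346. They were followed by Scarna13 at 236 and Scarna2, a guide for the U2 spliceosomal RNA, at 184. Snora73b reached 132, Gm25395 in Atg16l1, an autophagy gene, 103, Snord17 in Snx5, a sorting nexin, 71.8 and Gm24339 in Cep295, a centriole gene, 70.8. Below these, median levels in a library were 0.760 CPM for the Cajal body set, 0.484 for H/ACA, 0.386 for box C/D and 0.264 for the Snhg14 set.

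**Figure D1:**
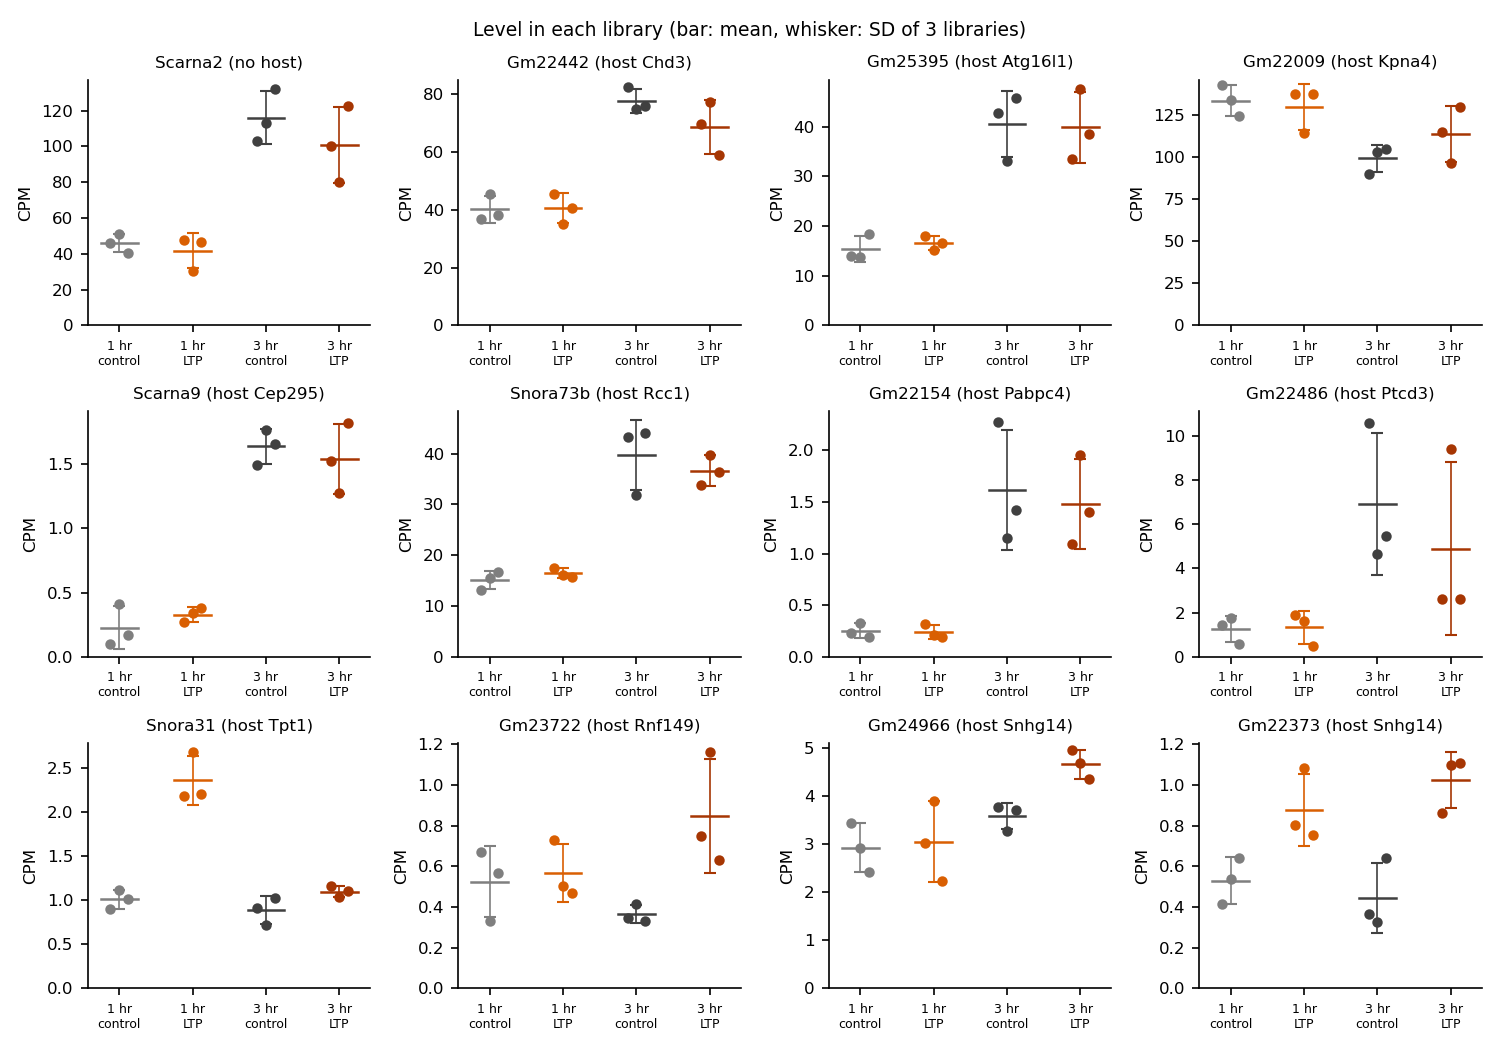
Level of 12 members in each library, in CPM (y axis, from 0) for the 4 groups (x axis); points are libraries, bars the mean and whiskers the SD of 3 libraries. Scarna2, Gm22442, Gm25395, Scarna9, Snora73b and Gm22154 sat higher in all 6 libraries at 3 hr than in all 6 at 1 hr, while Snora31 stood apart in the 3 libraries of 1 hr LTP.

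The first question was whether LTP changed the members at 1 hr. Of 156 members tested, 1 rose and 0 fell, a share of 0.641% called against 0.789% of all genes called (0.778% higher). The gene that rose was Snora31, an H/ACA RNA that guides modification of ribosomal RNA. Its level was 0.904, 1.12 and 1.02 CPM in 1 hr control and 2.19, 2.69 and 2.21 CPM in 1 hr LTP, a log2 fold change of 1.30 (SE 0.246, adjusted p = 0.0221). At 3 hr it had 0.908, 0.719 and 1.03 CPM in control and 1.16, 1.03 and 1.11 CPM in LTP slices. The 3 libraries of 1 hr LTP therefore lay above the other 9, with no overlap. Its host Tpt1, which encodes the abundant growth-related protein TCTP, stood at 310, 312 and 329 CPM in 1 hr control and 353, 349 and 333 CPM in 1 hr LTP, a log2 difference of 0.12 that was not called. The call of Snora31 was lost without 1 hr control replicate 1 (adjusted p = 0.279) or 1 hr control replicate 3 (adjusted p = 0.152), with log2 fold changes of 1.22 and 1.39. Each of these fits has 1 control library, assumed to vary like the LTP libraries. Without 1 hr LTP replicate 3 the members called numbered 2.

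The medians at 1 hr were 0.02 on the log2 scale for the Cajal body set, 0.15 for H/ACA (0.0900 to 0.254 when each library was left out), -0.03 for box C/D, 0.08 for the Snhg14 set and 0.23 for members with neither set of boxes, against -0.02 for the hosts and -0.00 for all genes. In the same leave-outs the median of all box C/D members, those in Snhg14 included, ran from -0.0366 to 0.233. For members of neither class it ran from -0.0235 to 0.306, so these signs were not stable. Of 114 hosts tested, 0 were called, and 8 had an unadjusted p under 0.05. The lowest p among members with a negative difference belonged to Gm23455 in an exon of Taf1d, a subunit of the RNA polymerase I promoter factor, at -1.01 (SE 0.275, adjusted p = 0.209). It had 1.58, 0.972 and 1.54 CPM in 1 hr control and 0.729, 0.738 and 0.823 CPM in 1 hr LTP. Genes other than members shorter than 300 bases had a median of 0.23. LTP libraries lay above control libraries at 1 hr in the ratio of member to host in 20 of 199 pairs and below in 9, where 6.68% of all genes were above and 6.59% below in level.

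At 3 hr, 5 of 198 members rose and 0 fell, 2.53% against 5.07% of all genes called higher and 6.6% called in either direction. The 5 fell into 2 groups. Gm22373 and Gm24966 lie in Snhg14, and their host rose as well. The other 3, Gm23722, Gm23200 and Gm25711, lie in introns of Rnf149, an E3 ubiquitin ligase, Samd12 and Cdh12, a cadherin, none of which was called.

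In Snhg14, Gm24966 had 3.76, 3.27 and 3.70 CPM in 3 hr control and 4.95, 4.68 and 4.35 CPM in 3 hr LTP, a log2 fold change of 0.40 (SE 0.114, adjusted p = 0.0957). For Gm22373 the values were 0.368, 0.327 and 0.642 CPM in control and 0.863, 1.10 and 1.11 CPM in LTP slices, a log2 fold change of 1.19 (SE 0.284, adjusted p = 0.0576). In both, the LTP libraries lay above the control libraries at 3 hr. At 1 hr Gm22373 also lay higher in LTP slices (0.802, 1.08 and 0.752 CPM against 0.413, 0.538 and 0.639), a difference that was not called. Snhg14 itself had 438, 402 and 452 CPM in 3 hr control and 577, 602 and 541 CPM in 3 hr LTP, a log2 fold change of 0.43 (SE 0.0714, adjusted p = 0.0184). Across the array, 40 of 42 tested members within Snhg14 had a value above 0, with a median of 0.43, and their summed level was 20.5, 19.2 and 23.1 CPM in 3 hr control and 28.1, 27.4 and 27.8 CPM in 3 hr LTP, 1.33-fold higher. The 42 share 1 host and many share sequence, so they are not 42 independent values. At 1 hr the summed level was 17.3, 17.1 and 17.4 CPM in control and 19.2, 18.9 and 17.3 CPM in LTP slices. Relative to Snhg14, 7 of the 48 members lay lower in every 3 hr LTP library than in every 3 hr control library and 1 lay higher (14.6% and 2.08%), where 13.5% of all genes lay lower and 12.6% higher in level.

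Gm23722 had 0.346, 0.414 and 0.331 CPM in 3 hr control and 0.750, 1.16 and 0.633 CPM in 3 hr LTP, a log2 fold change of 1.25 (SE 0.290, adjusted p = 0.0551), with Rnf149 at 0.00. The values of Gm23200 were 0.151, 0.0871 and 0.0973 CPM in control and 0.318, 0.308 and 0.264 CPM in LTP slices (1.41, SE 0.353, adjusted p = 0.0655), and those of Gm25711 were 0.0433, 0.109 and 0.0973 CPM and 0.273, 0.22 and 0.396 CPM (1.78, SE 0.441, adjusted p = 0.0632). The groups did not overlap in any of the 3, but Gm23200 and Gm25711 averaged only 8 and 8.17 counts per library. Without 3 hr control replicate 1, 3 hr control replicate 2 or 3 hr LTP replicate 1, 0 members were called at 3 hr, without 3 hr control replicate 3 it was 1, and without 3 hr LTP replicate 2 it was 17, of which 10 were higher and 7 lower (4.88% and 3.41%), where 9.32% of all genes were then called higher and 2.89% lower. Without that library the median within Snhg14 was 0.42 with 3 members higher, that of H/ACA members was -0.04 with 2 higher and 5 lower, and that of Cajal body members was 0.0063.

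Outside Snhg14 the medians at 3 hr were 0.11 for the Cajal body set, 0.06 for H/ACA, 0.14 for box C/D and 0.21 for members with neither set of boxes, with all libraries, beside 0.34 for other genes under 300 bases and -0.00 for all genes. Among hosts, 7 of 115 rose (6.09%) and 0 fell, with a median of -0.06, beside 5.07% of all genes higher. They were Snhg14 (0.43), the neuronal non-coding host Snhg11 (0.41), the elongation factor Ell2 (0.51), Odc1, the first enzyme of polyamine synthesis (0.35), the guidance ligand Slit3 (0.55), the chromatin remodeller Srcap (0.57) and Iars, isoleucyl-tRNA synthetase (0.30). Leaving out 1 library gave 1 to 16 hosts called, the fewest without 3 hr control replicate 2 and the most, 13 higher and 3 lower, without 3 hr LTP replicate 2, and without 3 hr LTP replicate 3 there were 6 higher and 4 lower. With the animal as a block in the fit, 11 hosts were called and the count of members stayed at 5. Except in Snhg14, no member within a called host was called at 3 hr. Gm26397 in Tomm20, a receptor of mitochondrial import, had the smallest p among negative differences, -0.25 (SE 0.110, adjusted p = 0.238). Libraries of 3 hr LTP lay above those of 3 hr control in the ratio to the host in 22 of 199 pairs and below in 7, where 12.6% of all genes lay above and 13.5% below in level. These ratios had 0.1 CPM added to each level, and with 0.5 CPM added 50 pairs lay without overlap in either direction.

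**Figure D2:**
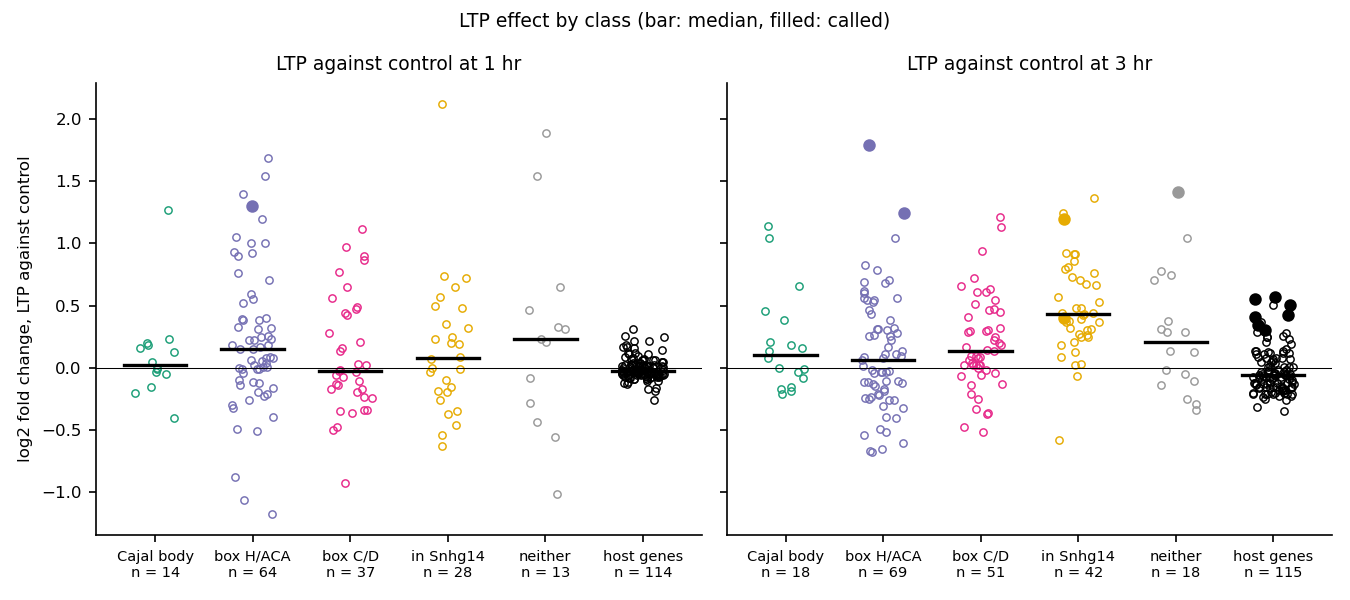
Log2 fold change of LTP against control (y axis) for each tested member by set and for each host gene (x axis), at 1 hr and at 3 hr; filled points were called and black bars are medians. Within Snhg14 the median stood at 0.08 at 1 hr and 0.43 at 3 hr, while the other sets stayed between -0.03 and 0.23.

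Whether the LTP effect differed between 1 hr and 3 hr was tested as an interaction over 11 libraries. None of 212 members was called by edgeR (0 of 212), beside 0.0592% of all genes, and DESeq2 also called 0. At an unadjusted p under 0.05 there were 16 of 212 members and 1225 of 18584 genes. Snora31 had the smallest p on the negative side, -0.98 (SE 0.293, adjusted p = 0.498), and Gm24653 in Snhg14 the smallest on the positive side, 1.55 (SE 0.468, adjusted p = 0.5). Gm24653 had 0.646, 0.372 and 0.639 CPM in 1 hr control, 0.316, 0.475 and 0.447 CPM in 1 hr LTP, 0.173, 0.370 and 0.370 CPM in 3 hr control and 0.523, 0.593 and 0.607 CPM in 3 hr LTP. The array's median difference was 0.28 and that of Snhg14 itself 0.27 (SE 0.103, adjusted p = 0.655).

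Differences between the times were wider. In control slices 55 of 212 members rose from 1 hr to 3 hr and 6 fell, that is 25.9% and 2.83%, where 32.8% of all genes were called, 16.1% higher and 16.8% lower. In LTP slices 66 rose and 6 fell, 31.1% and 2.83%, where 35.9% of all genes were called, 18.6% higher and 17.3% lower. The lists shared 39 members that rose, 70.9% of the control list and 59.1% of the LTP list, and 1 that fell, Gm25759. The median over all members was 0.37 in control slices and 0.57 in LTP slices, against -0.02 and 0.00 over all genes. These comparisons rest in part on 3 libraries at 3 hr in which the H/ACA, box C/D and Y RNA sums stood high, and their values without those libraries follow the class values.

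By class, the Cajal body set had 9 of 18 members higher and 1 lower in both kinds of slices (medians 0.44 in control and 0.67 in LTP). Of 75 H/ACA members tested, 24 rose and 3 fell in control slices and 25 rose and 4 fell in LTP slices (0.41 and 0.43). With at least 10 counts required in every fitted library, the H/ACA median in LTP slices was 0.21. Of 52 box C/D members, 12 rose in control slices and 13 rose and 1 fell in LTP slices (0.34 and 0.66). Within Snhg14, 5 of 48 rose and 1 fell in control slices, and 14 rose in LTP slices (0.25 and 0.58). Of the 19 members with neither set of boxes, 5 rose and 1 fell in control slices and 5 rose in LTP slices (0.53 and 0.48). Of 13 members with at least 200 bases, 8 rose and 1 fell in control slices, with a median of 1.13, and 9 rose in LTP slices, with a median of 0.93. As shares, 50% of the Cajal body set rose in control slices, 32% of H/ACA, 23.1% of box C/D and 10.4% of Snhg14 members. With neither set of boxes it was 26.3% and with at least 200 bases 61.5%, beside 16.1% of all genes. In LTP slices the shares were, in the same order, 50%, 33.3%, 25%, 29.2%, 26.3% and 69.2%, beside 18.6% of all genes. Among the 16 members that reached 10 counts at 3 hr alone, a rise is built into the choice. Without them 50 of 196 rose (25.5%) and 6 fell in control slices, and 57 rose (29.1%) and 6 fell in LTP slices.

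The summed level of the Cajal body set was 306, 309 and 287 CPM in 1 hr control, 320, 256 and 309 CPM in 1 hr LTP, 416, 407 and 448 CPM in 3 hr control and 410, 410 and 429 CPM in 3 hr LTP, without overlap between times. That of the H/ACA set ran from 72.6 to 90.8 CPM at 1 hr and was 153, 107 and 138 CPM in 3 hr control and 108, 166 and 115 CPM in 3 hr LTP. Box C/D members outside Snhg14 ran from 39.8 to 50.1 CPM at 1 hr and were 72.8, 51.8 and 65.3 CPM in 3 hr control and 54.9, 81.3 and 57.2 CPM in 3 hr LTP. In both classes 3 hr control 1, 3 hr control 3 and 3 hr LTP 2 were the highest libraries. The same 3 libraries held the most Y RNA, small cytoplasmic RNAs that are no members, at 3 hr: Rny1 and Rny3 together gave 58.8, 27.6 and 47.7 CPM in 3 hr control and 23.4, 161 and 30.6 CPM in 3 hr LTP, with 24.9 to 78.2 CPM at 1 hr. The part of small RNA recovery in these differences was not tested.

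With those 3 libraries left out together, an alternative chosen after the data were seen, 24 of 213 members rose and 3 fell in control slices, 11.3% and 1.41%, where 12.3% of all genes rose and 8.84% fell. In LTP slices 46 rose and 8 fell, 21.6% and 3.76%, beside 19.8% and 17.7% of all genes. The share of members that rose was then near that of all genes in both kinds of slices. A single 3 hr control library remained and was assumed to vary like the other groups. Medians over the members were 0.24 in control and 0.51 in LTP slices, against 0.01 and 0.00 over all genes. By class, the medians in control and LTP slices were 0.42 and 0.59 for the Cajal body set and 0.28 and 0.39 for H/ACA. They were 0.14 and 0.56 for box C/D members outside Snhg14 and 0.24 and 0.61 within Snhg14. Members with neither set of boxes had 0.53 and 0.51, and those with at least 200 bases 0.99 and 0.56.

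The most abundant members show the change in single genes. Scarna2, for which no host was found, had 46.3, 51.0 and 40.7 CPM in 1 hr control and 103, 113 and 132 CPM in 3 hr control (1.39, SE 0.195, adjusted p = 0.000273). In LTP slices it went from 47.7, 30.3 and 46.8 CPM to 100, 79.9 and 122 CPM (1.26, SE 0.170, adjusted p = 0.000147). Every 3 hr library lay above every 1 hr library. Gm22442 had 36.9, 45.4 and 38.1 CPM in 1 hr control and 82.6, 74.9 and 75.9 CPM in 3 hr control (1.02, SE 0.115), and 45.6, 35.3 and 40.8 CPM against 69.9, 77.3 and 58.9 CPM in LTP slices (0.74, SE 0.1). Its host Chd3 ran from 626 to 761 CPM at 1 hr and from 607 to 748 CPM at 3 hr, with log2 differences of -0.03 and -0.01 that were not called. Gm25395 showed the same pattern, 14.0, 13.7 and 18.3 CPM against 42.6, 33.1 and 45.8 CPM in control slices (1.30, SE 0.168) and 18, 15.2 and 16.6 CPM against 33.5, 47.6 and 38.4 CPM in LTP slices (1.24, SE 0.146), beside 0.09 and 0.17 for Atg16l1, neither called.

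Abundant members did not all move together. Gm22009, the member with the most counts, fell in control slices from 142, 133 and 124 CPM to 90.0, 103 and 105 CPM (-0.45, SE 0.118, adjusted p = 0.0106), a call that was lost without 1 hr control replicate 1 (-0.31, adjusted p = 0.160). In LTP slices it went from 137, 114 and 137 CPM to 115, 96.3 and 129 CPM, a difference of -0.21 that was not called. Its host Kpna4 differed by 0.01 and 0.07. Scarna13 rose by 0.27 and 0.36, from 57.8, 57.4 and 57.4 CPM in 1 hr control to 76.3, 67.3 and 69.5 CPM in 3 hr control. Snord17 had 14.3, 13.6 and 14.6 CPM in 1 hr control and 24.3, 13.0 and 21.6 CPM in 3 hr control (0.41, not called), and rose by 0.76 in LTP slices, where 3 hr LTP 2 alone had 33.4 CPM against 15.7 and 16.4 in the other libraries. Gm24339, the box C/D neighbour of Scarna9 in Cep295, was called in neither comparison, at -0.31 and -0.04.

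Scarna9, a Cajal body guide for U2 RNA, rose while its host fell. It had 0.103, 0.414 and 0.166 CPM in 1 hr control and 0.267, 0.343 and 0.376 CPM in 1 hr LTP, and 1.49, 1.76 and 1.65 CPM in 3 hr control and 1.52, 1.27 and 1.82 CPM in 3 hr LTP. The lowest 3 hr library was thus above the highest 1 hr library, and the log2 fold changes were 3.54 (SE 0.332) and 2.19 (SE 0.246), the former without 1 hr control 2, which had the highest 1 hr control level. Cep295 fell over the same libraries by 0.44 and 0.35 on the log2 scale, from between 45.1 and 54.4 CPM at 1 hr to between 37.7 and 45.4 CPM at 3 hr. Gm22486 in Ptcd3, a mitochondrial translation factor, rose by 2.76 (SE 0.662) and 1.86 (SE 0.552) while Ptcd3 fell by 0.36 and 0.37. Its level at 3 hr was spread widely, 10.6, 4.64 and 5.49 CPM in control and 2.64, 9.41 and 2.61 CPM in LTP slices, against 0.494 to 1.89 CPM at 1 hr, and its highest values lay in 3 hr control 1 and 3 hr LTP 2.

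Gm22154 in Pabpc4, a poly(A)-binding protein gene, went from 0.188 to 0.331 CPM at 1 hr to 2.27, 1.15 and 1.42 CPM in 3 hr control and 1.09, 1.96 and 1.40 CPM in 3 hr LTP (2.89, SE 0.420, and 2.60, SE 0.356), with Pabpc4 at -0.07 and -0.08. Gm25492 in Bud23, a ribosomal RNA methyltransferase, rose by 2.93 and 2.14 with its host at 0.09 and 0.08. Gm25394 in Iars rose by 3.45 in control slices, where it had 2.51, 0.871 and 0.856 CPM at 3 hr against 0.155, 0.186 and 0.0947 CPM at 1 hr. In LTP slices it rose by 1.78, a call that was lost without 3 hr LTP replicate 2 (0.71, adjusted p = 0.286). Snora73b rose by 1.38 and 1.13, from 13.1, 15.4 and 16.7 CPM to 43.3, 31.8 and 44.0 CPM in control slices. It had 2 candidate hosts, and 100% of its length lay in exon sequence of a gene other than Rcc1. Rcc1, the exchange factor of the GTPase Ran, was taken as host because it was the more abundant, and rose by 0.67 and 0.44. Which candidate gives rise to Snora73b was not tested. Snora78 rose by 2.97 and 1.32 and its non-coding host Snhg9 by 1.59 and 1.94, from a level of at most 0.290 CPM at 1 hr. Gm23442 in Prrc2a rose by 1.77 and 1.75, and Prrc2a rose by 0.67 in LTP slices.

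For members without a host, no annotated protein-coding or long non-coding gene held their whole span on the same strand. Whether they lie in a host transcript that this annotation misses was not tested. Of 15, 6 rose in control slices and 0 fell, and 4 rose and 1 fell in LTP slices, 40.0% and 26.7% higher, where 16.1% and 18.6% of all genes were higher. Besides Scarna2 and Scarna13, Rnu3a, a U3 RNA that acts in cleavage of the small-subunit precursor, rose by 1.70 (SE 0.689, adjusted p = 0.0766) and 1.34 (SE 0.563, adjusted p = 0.0770). Its values at 3 hr were 5.28, 2.13 and 3.29 CPM in control and 1.59, 9.30 and 1.93 CPM in LTP slices, again highest in 3 hr control 1 and 3 hr LTP 2. Snord118, the U8 RNA of large-subunit maturation, rose by 1.08 and 0.98. Snord13, which guides acetylation of small-subunit ribosomal RNA, rose by 1.51 in control slices at 10.7 counts per library. Gm23119 rose by 0.61 in control slices, and Snora24 fell by 0.43 in LTP slices (adjusted p = 0.0990), a call that was lost in most leave-outs.

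Few members fell. In control slices Gm25759, in an intron of the heparan sulfate sulfotransferase gene Hs3st4, fell from 0.981, 1.22 and 1.47 CPM to 0.411, 0.370 and 0.545 CPM (-1.49, SE 0.332, adjusted p = 0.00453), and in LTP slices from 1.41, 1.48 and 0.799 CPM to 0.568, 0.901 and 0.686 CPM (-0.78, SE 0.290, adjusted p = 0.0485). The groups did not overlap in control slices and did in LTP slices, and Hs3st4 was not called. Gm22579 and Gm23455, both in exons of Taf1d, fell in control slices by 1.03 and 0.74, beside a fall of 0.55 in Taf1d. Gm24653 fell by 1.09 and Gm23722 by 0.79 in control slices, the latter with an adjusted p of 0.0948 that was lost in 15 of the alternatives. In LTP slices Snora31 fell by 1.12 (SE 0.185, adjusted p = 0.000540), since its 1 hr LTP libraries were the high ones, and in control slices its difference was -0.14, not called. Gm22728 in G3bp2, a stress granule gene, fell by 0.71 beside its host (by 0.40), and Gm23130 in an exon of the ribosomal protein gene Rps12 fell by 0.48 with Rps12 at -0.04.

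Among 115 hosts, 10 rose and 18 fell in control slices (8.70% and 15.7%, median -0.02), where 16.1% of all genes rose and 16.8% fell. In LTP slices 14 hosts rose and 24 fell (12.2% and 20.9%, median -0.01), where 18.6% of all genes rose and 17.3% fell. The summed level of the hosts was 17612 to 18280 CPM at 1 hr and 16970 to 17996 CPM at 3 hr. Of 49 members that rose in control slices and had a host, the host rose in 4, fell in 7 and was not called in 38. In LTP slices, of 62 such members the host rose in 6, fell in 11 and was not called in 45. The member's fold change exceeded that of its host in 148 of 197 pairs in control slices and 162 of 197 in LTP slices, with a median difference of 0.54 and 0.63. Without the members that reached 10 counts at 3 hr alone, 44 members with a host rose in control slices, where the host rose in 4, fell in 5 and was not called in 35, and 53 rose in LTP slices, where the host rose in 6, fell in 9 and was not called in 38. The median difference of the 181 pairs was then 0.48 and 0.57. Gm22422 rose by 2.35 and 1.51 in Trmt10c, a mitochondrial RNase P subunit gene, which fell by 0.40 and 0.41. Snord16a and Gm23136 rose by 1.58 and 1.85 in Rpl4, which fell by 0.33, in control slices, and in LTP slices neither was called (0.36 and 0.83) while Rpl4 fell by 0.43.

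**Figure D3:**
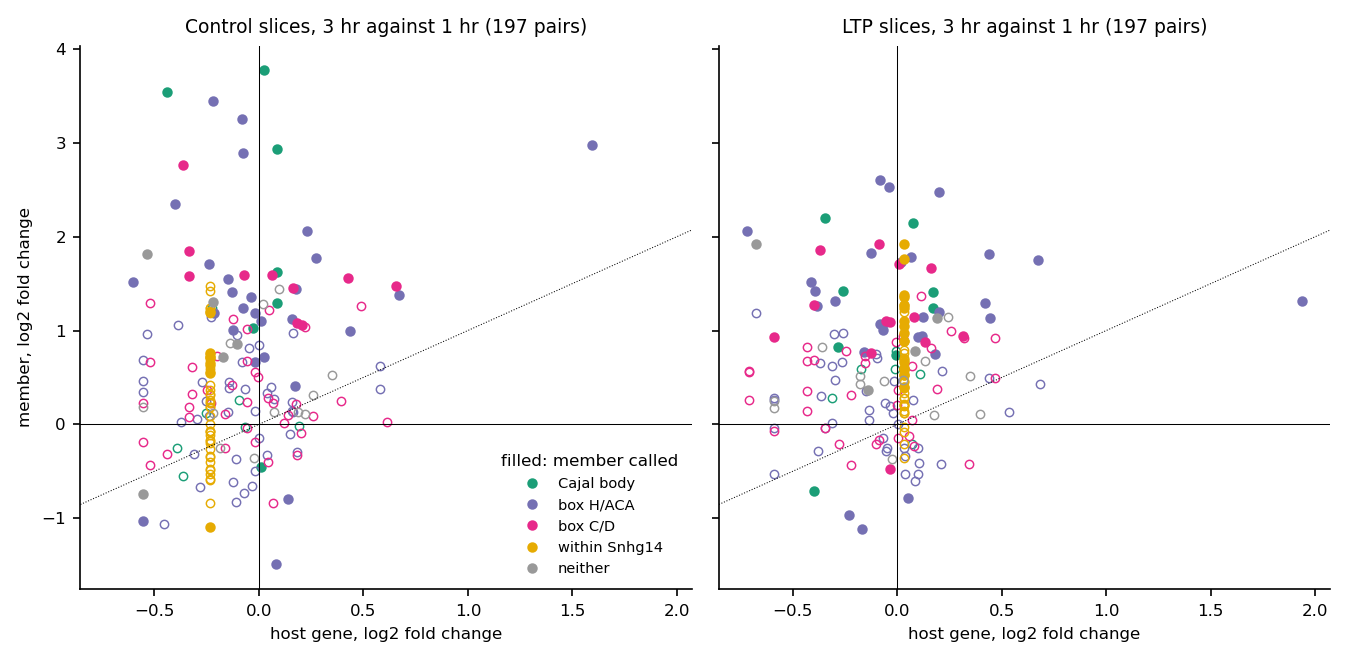
Log2 fold change of each member (y axis) against that of its host (x axis) for 3 hr against 1 hr, in control slices and in LTP slices, 197 pairs each, colored by set; filled points are called members, and the dotted line marks equal change. Members lay above the line in 148 pairs in control slices and in 162 in LTP slices, and the members of Snhg14 share 1 host value.

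The ratio of member to host (log2 CPM of each after adding 0.1 CPM) was then taken library by library. In 73 of 199 pairs (36.7%) all 3 hr control libraries lay above all 1 hr control libraries and in 5 they lay below, where 21.8% of all genes lay above and 20.9% below in level. In LTP slices the ratio was above in 83 pairs (41.7%) and below in 8, where 23.6% of all genes lay above and 21.3% below. The 199 pairs include the 16 members that met the count threshold at 3 hr alone. For those members a rise is built into the choice. Neither these counts nor the class medians that follow were repeated without them. How much of the excess over all genes this choice fixes was not tested. For the 14 Cajal body pairs the median shift from the mean of 1 hr controls was 0.82, 0.37 and 0.73 in 3 hr control and 0.82, 1.29 and 0.84 in 3 hr LTP. The H/ACA pairs had 0.55, 0.23 and 0.51 in 3 hr control and 0.46, 0.69 and 0.44 in 3 hr LTP, so that 3 hr control 2 was the lowest of the 3 hr libraries in both classes. Box C/D pairs outside Snhg14 had 0.25, 0.25 and 0.50 in 3 hr control and 0.63, 0.59 and 0.63 in 3 hr LTP. The Snhg14 pairs had 0.40, 0.41 and 0.41 in 3 hr control and 0.31, 0.24 and 0.37 in 3 hr LTP.

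**Figure D4:**
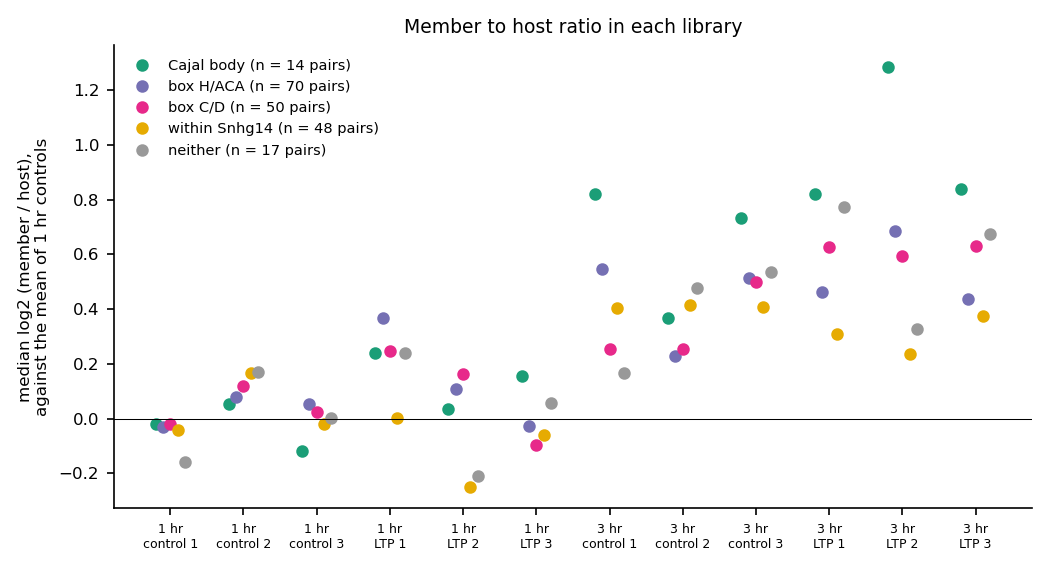
Median log2 ratio of member to host in each of the 12 libraries (x axis), as the difference from the mean of the 1 hr controls (y axis), by set; points are medians over the pairs of a set. Every 3 hr library lay above 0 in every set, and the Cajal body pairs reached 1.29 in 3 hr LTP 2. The pairs include the 16 members that met the count threshold at 3 hr alone, for which a rise is built in.

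In hosts with at least 3 members the fitted values of the members were spread, and whether members of the same host differ from each other was not tested. The 8 members in Taf1d ran from -1.03 to 0.69 in control slices, with 2 lower, and from -0.53 to 0.93 in LTP slices, with 1 higher, while Taf1d fell by 0.55 and 0.59. The 4 members in Rpl4 ran from 0.08 to 1.85 in control slices, with 2 higher, and from 0.14 to 0.83 in LTP slices, with 0 called. The 3 members in Rpl17 ran from -0.43 to 1.29 with none called, beside a fall of 0.52 in Rpl17. In Rpsa 1 of 3 rose in each kind of slice, and in Rps12 1 rose and 1 fell in LTP slices. Within Snhg14 values ran from -1.09 to 1.48 in control slices and from -0.36 to 1.93 in LTP slices, while Snhg14 itself was at -0.23, under the fold threshold, and 0.03.

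Genes for proteins that bind and process the members were taken from lists. In the LTP comparisons 0 of 4 box C/D core proteins, 0 of 4 H/ACA core proteins, 0 of 9 assembly factors and 0 of 6 processing enzymes were called at either time, and of 8 Cajal body and U3 proteins Imp3 fell at 3 hr by 0.31, where 0.789% of all genes were called at 1 hr and 6.6% at 3 hr. Between the times, where 32.8% of all genes were called in control slices and 35.9% in LTP slices, Fbl, which encodes fibrillarin, the methyltransferase of box C/D particles, rose by 0.35 in control slices and 0.40 in LTP slices, and Gar1, a subunit of H/ACA particles, rose by 0.87 and 0.51. In each of these lists 1 of 4 genes was called. Of the H/ACA core genes 2 of 4 lay above 0 in control slices and 1 of 4 in LTP slices (median -0.14). Of the box C/D core genes 3 of 4 lay above 0 in each. Wrap53, which carries scaRNAs to the Cajal body, rose by 0.54 and 0.30, and Rrp9, a U3 protein, by 0.27 and 0.28. The U3 protein gene Mphosph10 fell by 0.45 and 0.57, and the assembly factors Rpap3 and Ruvbl1 fell by 0.53 and 0.40 in control slices and 0.55 and 0.39 in LTP slices. Xrn2, a nuclear exonuclease, fell by 0.40 and 0.38. In LTP slices alone the test was also passed upward by the assembly factors Naf1 (0.33), Shq1 (0.40) and Znhit6 (0.51), and downward by Nufip1 (0.28) and the debranching enzyme gene Dbr1 (0.28). Among 14 tested non-coding host genes listed by symbol, Snhg15, Snhg17, Snhg20 and Snhg9 rose between the times in both kinds of slices, and Gas5 and Snhg3 fell in LTP slices by 0.31 and 0.35.

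Other small RNA genes and cell markers moved between the times too, and their part in the members' differences was not tested. Rmrp, the RNA of RNase MRP, rose by 1.5 and 1.21 and the telomerase RNA Terc by 1.14 and 1.02. Of the near-identical 7SL copies, Rn7s1 rose by 1.13 and 1.34 and Rn7s2 fell by 1.08 and 0.79. Of 107 small nuclear RNA genes 9 rose and 16 fell in control slices (median -0.21) and 9 rose and 13 fell in LTP slices (median -0.01), while their summed level was 1.47-fold higher at 3 hr in control slices and 1.39-fold higher in LTP slices, with its highest values in 3 hr control 1, 3 hr control 3 and 3 hr LTP 2. Of 1091 processed pseudogenes 34 rose and 363 fell in control slices (median -0.64) and 55 rose and 396 fell in LTP slices (median -0.59). Other genes under 300 bases had 58 of 389 higher and 55 lower in control slices (median 0.07) and 70 higher and 60 lower in LTP slices (median 0.17). Of the microglia markers, 3 of 3 fell in both kinds of slices, with summed levels of 66.3 to 82.3 CPM at 1 hr and 32.7 to 39.1 CPM at 3 hr, and of 4 pyramidal neuron markers Neurod6 fell by 1.10 and 0.91 while the other 3 were not called and lay above 0. Of the other markers, Mbp of oligodendrocytes rose (0.52 and 0.28), and Gad2 of inhibitory neurons (-0.41 and -0.44) and Slc1a3 of astrocytes (-0.29 and -0.27) fell. All 3 oligodendrocyte markers lay above 0. The other inhibitory marker lay at 0.15 and 0.20 and was not called, and of 3 astrocyte markers 2 lay above 0 in control slices and 1 in LTP slices. Of 3 endothelial markers Flt1 and Pecam1 fell in control slices and Cldn5 rose in LTP slices. The 3 granule cell markers of the trimmed dentate gyrus summed to 112 to 213 CPM against 2463 to 3833 CPM for the pyramidal markers. No marker was called in either LTP comparison. At 1 hr, however, all 3 endothelial markers lay lower in LTP slices with an unadjusted p under 0.05 in edgeR's test (median -0.24). Their summed level was 75.5 to 82.5 CPM in 1 hr control and 64.7 to 66.4 CPM in 1 hr LTP. All 3 oligodendrocyte markers lay higher at 1 hr, 2 of them with such a p, as had 1 of 2 inhibitory markers. Of 9 other small structural RNAs, Rn7s1 rose in 1 hr LTP by 0.55 and 0 were called at 3 hr, and Rny1 and Rny3 together stood 1.67-fold higher in LTP than in control slices at 1 hr, where neither was called. At 1 hr 6 of the 9 had an unadjusted p under 0.05.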

How the data were processed

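RNA from the 12 libraries was sequenced by the study as stranded total RNA depleted of ribosomal RNA, and the authors aligned reads with STAR to the mouse genome (mm10, that is GRCm38) and deposited raw counts per gene, in 1 table for each time point. How reads were assigned to overlapping genes, strands or repeated sequence is not given in the sources used here. Depth was 37118382 to 50815001 counts per library, and CPM was the count scaled to that total. A floor of 3 counts covers counting error only.

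Of 41091 identifiers, 20554 matched GENCODE M21 with their version and 19663 without it, and 874 did not match. The host was the gene on the same strand whose span holds the member, the most abundant where there was more than 1, and its exons set the placement. Members in neither class by symbol were sorted by letters, a rule added after the data were seen: box C/D with TGATG or TGACGA in the first 20 bases and CTGA in the last 16, and H/ACA with at least 110 bases and ACA followed by 2 to 4 bases. A near copy is another annotated gene of this kind that shares most of a member's runs of 31 bases.

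Tests used the quasi-likelihood test of edgeR 4.0.16 in R 4.3.3 with TMM scaling and its filter on low counts, and Benjamini-Hochberg adjustment over all genes. LTP was compared with control within each time point (5 libraries at 1 hr, 6 at 3 hr), and the other comparisons used a model of the 4 groups on 11 libraries. Calls needed an adjusted p below 0.1 together with a change of more than 1.2-fold, with no fold minimum for the difference of the LTP effects. Member to host ratios were log2 CPM differences after adding 0.1 CPM. The steps were tested on simulated data. DESeq2 1.42.0, limma 3.58.1, other scalings, other filters on low counts, the replicate block and leaving out each library were tried as alternatives.

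By the labels, same-numbered LTP and control libraries share an animal, so the numbers pair them. The correlations of paired deviations from the group means were -0.0149, -0.156 and 0.0750 at 1 hr and 0.0385, -0.0275 and 0.218 at 3 hr over 18240 genes. Replicates of a group differed beyond counting noise (chi-square per degree of freedom 9.49 to 85.6), so none was counted as a duplicate.

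Named members were the 8 highest per kilobase, the called members of each comparison, or, where more than 12 were called, the 6 highest and 6 lowest fold changes with at least 20 counts on average, and the smallest p where none was called. Members without a host were named in addition, after their values were seen. The members and lists were chosen with earlier results of these data known.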

Additional observations from a re-analysis of the deposited data

Results flagged for a closer look

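Among the genes named here, Arc, which encodes a synaptic protein made after activity, had an LTP effect that differed between the times. It was smaller at 3 hr than at 1 hr by 0.68 on the log2 scale (difference -0.68, SE 0.102, adjusted p = 0.0310 in edgeR's test of the interaction, 11 libraries). Arc is no member and served as a check of the LTP response, and no member or host met the same test.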

How the results depend on the processing

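No called value changed sign under an alternative. Of 1164 values 996 were scored as the same, 84 counts or medians as moved, 83 single-gene results as weaker and 1 as stronger. For a median near 0, the same did not mean an unchanged sign. The H/ACA median for LTP at 3 hr was scored as the same in 15 alternatives and ran from -0.0376 to 0.192 when each library was left out. Here box C/D means all 89 members of that class, those within Snhg14 included, and other members are the Cajal body RNAs and all members with neither set of boxes, in Snhg14 or outside it. For LTP at 1 hr, 3 members were called with no filter on low counts, 2 with 1 hr control 2 put back and 2 in the model of the 4 groups, and the box C/D median was 0.0764 with that library put back. For LTP at 3 hr, 3 members were called by DESeq2, 3 with no filter, 3 outside Snhg14 and 3 among members with 20 or more counts, while 11 hosts were called by DESeq2, 12 with no filter and 11 with the replicate block. The replicate block, which pairs libraries of an animal, left 5 members called at 3 hr and, with 1 hr control 2 put back, 1 at 1 hr and 0 for the difference, and it changed no other count of calls by over 1.5 times. With no filter, 1 member and 1 host were called for the difference of the LTP effects. With 0.5 CPM added in place of 0.1 CPM, 50 pairs rather than 29 had ratios without overlap between 3 hr LTP and 3 hr control.

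With at least 10 counts in every fitted library, 35 members were called between the times in control slices and 38 in LTP slices, from fewer members tested, and 44 in LTP slices among members with 20 or more counts. Medians under that filter were 0.12 for box C/D and 0.13 for other members for LTP at 3 hr. For the difference they were -0.34 for H/ACA, -0.081 for other members and -0.059 for hosts. Between the times they were 0.12 for box C/D, 0.64 for other members and 0.0083 for hosts in control slices, and 0.24 for box C/D and 0.21 for H/ACA in LTP slices. With 3 hr control 1, 3 hr control 3 and 3 hr LTP 2 left out together, 27 members were called in control slices, the box C/D median was 0.15 there and 0.29 for the difference, and the host median for the difference was -0.0942. The box C/D median in control slices was 0.35 with 1 hr control 2 put back, the host median there was 0.018 with total count scaling, and the median difference of other members was -0.016 with the replicate block and 1 hr control 2 put back together. The cause of these shifts was not tested.

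Leaving out each library in turn gave 0 to 2 members and 0 to 2 hosts called for LTP at 1 hr, 0 to 17 members and 1 to 16 hosts at 3 hr, 0 to 2 hosts for the difference, and 39 to 69 members between the times in control slices. Box C/D medians ran from -0.0366 to 0.233 for LTP at 1 hr, from -0.0115 to 0.256 for the difference, from 0.266 to 0.461 in control slices and from 0.556 to 0.723 in LTP slices. H/ACA medians ran from 0.0900 to 0.254 for LTP at 1 hr, from -0.0376 to 0.192 for LTP at 3 hr, below 0 without 3 hr LTP replicate 2, from -0.317 to -0.00560 for the difference, from 0.41 to 0.59 in control slices and from 0.393 to 0.596 in LTP slices. For other members they ran from -0.0235 to 0.306 for LTP at 1 hr, from -0.0683 to 0.149 for the difference, from 0.387 to 0.730 in control slices and from 0.502 to 0.761 in LTP slices. For hosts they ran from -0.106 to -0.0381 for LTP at 3 hr, from -0.0796 to 0.00334 for the difference, from -0.00518 to 0.0162 in control slices and from -0.0124 to 0.0226 in LTP slices. Depth limits most members, whose median was 16.7 counts per library.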
